A study of Mus musculus with 16 samples.

Results

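The genes described here are named for proteins of the mitochondrial ribosome, and all but Mrps36, whose product is now placed in the 2-oxoglutarate dehydrogenase complex, are known as its components. They were taken from the deposited expression table as protein-coding rows whose symbol starts with Mrpl or Mrps followed by a digit and whose mean over all libraries was 0.5 TPM or more (transcripts-per-million, a share of the library corrected for gene length). Of 57143 genes in the table, 84 carried such a symbol. The rule kept 78 of them, 49 named for the large subunit (Mrpl) and 29 for the small subunit (Mrps). The other 6 were annotated as pseudogenes, and 0 protein-coding rows fell under the minimum, so no member lay near it. All 78 members passed the filter on low values and were among the 16866 genes tested.

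The mitochondrial ribosome is built in the mitochondrial matrix from RNA encoded by mitochondrial DNA and from proteins encoded in the nucleus, made in the cytosol and imported. It translates the few messages of mitochondrial DNA, all of them for membrane subunits of the respiratory chain and the ATP synthase, on which the beating heart depends. The small subunit binds the message and decodes it, and the large subunit joins the amino acids and releases the chain next to the inner membrane.

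RNA came from the left ventricle of male C57BL/6 mice after abdominal surgery under sevoflurane, an inhaled anaesthetic, and the title of the series links the work to S100A8/A9 and to heart injury after surgery elsewhere in the body. The groups 0h, 3h, 24h and 7d give the time after surgery and hold 4 libraries each. The label of surgery is on all 16 libraries, 0h included, so there is no group without an operation, and no age is stated. Nothing in the labels states that the 4 libraries of a time are from different mice. All p-values below are therefore relative to the variation among these libraries, which could be technical. No genotype other than the strain is given.

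Libraries held 8313655 to 12893551 counts, of which members took 0.546% to 0.718%. The lowest count of any member in any library was 112. The 10 cardiomyocyte markers summed to 63055 TPM or more in every library, and none was listed at 0. Some libraries held signs of other cells. Myl7, an atrial myosin light chain, measured 146 TPM in 3h library 3 and 63.8, 126 and 159 TPM in 24h libraries 1, 2 and 4, against at most 9.59 TPM elsewhere. The list of 4 atrial markers summed to 453 to 1465 TPM at 0h, 256 to 738 TPM at 3h, 479 to 1004 TPM at 24h and 534 to 2762 TPM at 7d. None of the 4 was at 0 throughout a group, and 3 were called higher at 24h than at 0h. The 7 hepatocyte markers summed to 6.88 to 8.5 TPM at 0h, with 3 of them at 0 in every library, 5.31 to 97.4 TPM at 3h, 2.54 to 18.8 TPM at 24h and 6.1 to 10.2 TPM at 7d. The 7 neutrophil markers summed to 8.96 to 10.7 TPM at 0h, 146 to 562 TPM at 3h, 67.2 to 325 TPM at 24h and 15.4 to 107 TPM at 7d. Markers of the supporting cells differed as well. From 0h to 3h the summed level went from 640 to 963 TPM to 604 to 637 TPM for 7 fibroblast markers, from 480 to 650 TPM to 346 to 430 TPM for 6 endothelial markers and from 830 to 1052 TPM to 665 to 780 TPM for 6 markers of smooth muscle and pericytes. In none of these lists did the 3h libraries overlap with those at 0h, though only 1 endothelial marker was called lower. TPM of all genes was also lower at 3h, with a median log2 fold change of -0.15 on log2(TPM + 1). How much of the lower sums this made up was not tested. At 24h 3 fibroblast markers were called lower and 1 higher (median log2 fold change -0.60), and at 3h 2 of 7 macrophage markers were called higher. No marker of these 4 lists was at 0 throughout a group. Their part in the results below was not tested, apart from the fit with Myl7 as a covariate.

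In TPM, which allows for gene length, member transcripts spanned a 46.4-fold range, from 12.4 TPM for Mrps10 to 577 TPM for Mrps21. The large subunit had a median of 92.3 TPM over its 49 members and the small subunit 54.4 TPM over its 29. The highest large-subunit members were Mrpl12 (474 TPM), the stalk protein that recruits translation factors, Mrpl14 (338 TPM), Mrpl34 (330 TPM) and Mrpl53 (329 TPM). Mrps21 was followed in the small subunit by Mrps23 (362 TPM), Mrps24 (269 TPM) and Mrps28 (241 TPM). At the low end stood Mrpl33 (17 TPM), Mrpl19 (19.7 TPM) and Mrpl17 (23.3 TPM) in the large subunit, and Mrps10, Mrps22 (18.3 TPM) and Mrps5 (21.1 TPM) in the small. These ranks rest on the table's gene lengths, which for 27 of the 78 members were more than 2 times the median length of the gene's protein-coding transcripts in GENCODE M21. With that transcript length in place of the table's, a choice made after seeing the data, Mrpl33 moved from rank 77 to rank 21 and Mrpl42 from rank 8 to rank 1. Spearman's rho between both orders was 0.78 over the 78 genes, which share libraries and counts.

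The members' level moved as a block between libraries, with large and small subunit together. For each gene, log2 CPM (counts-per-million, scaled between libraries by TMM) were centred on the gene's mean over all libraries, and the median over members was taken in each library. At 0h the medians were -0.24, -0.13, -0.16 and -0.02, and at 3h they were 0.25, 0.06, 0.03 and 0.16, so every 3h library lay above every 0h library. At 24h they split, with 0.21 and 0.22 in libraries 1 and 4 and -0.11 and -0.10 in libraries 2 and 3. At 7d they were -0.19, -0.05, 0.10 and -0.02 and overlapped with all other groups. The large and small subunit medians of a library differed by at most 0.07. Cytosolic ribosomal proteins (82 genes) and subunits of complex I (39 genes), other sets of short, abundant transcripts, were also highest in 3h library 1 and 24h libraries 1 and 4. The median of all genes stayed between -0.01 and 0.02. On log2 TPM, centred the same way, the member medians lay closer together. They were -0.05 to 0.04 at 0h, 0.04 to 0.09 at 3h, -0.08 to 0.01 at 24h and -0.10 to 0.10 at 7d. The TMM factor was highest in 0h library 1 (1.07) and lowest in 24h libraries 4 (0.911) and 1 (0.937).

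**Figure D1:**
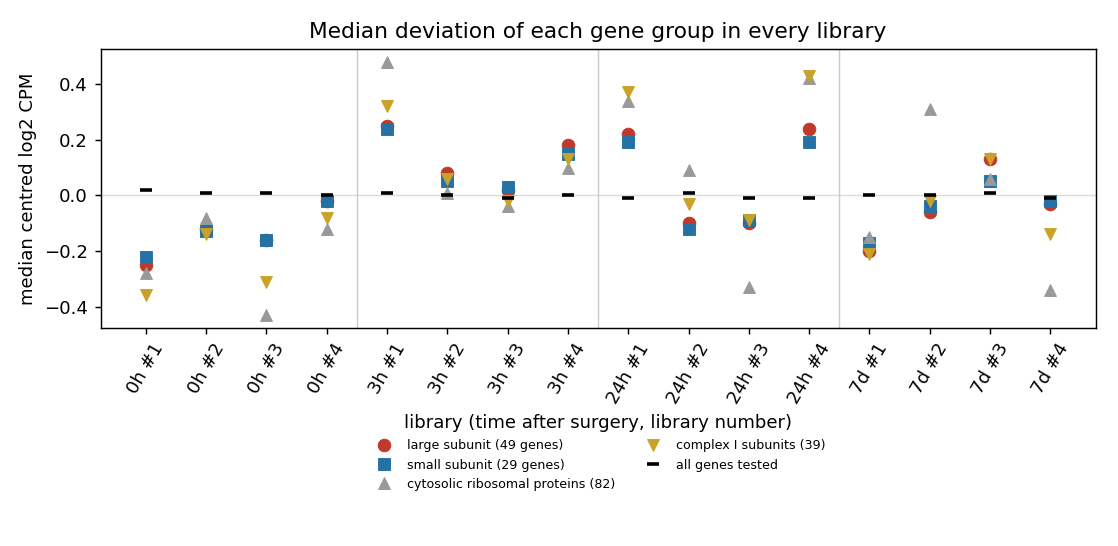
Median centred log2 CPM in each of the 16 libraries (x axis, by time and library number) for the large subunit, the small subunit, cytosolic ribosomal proteins, complex I subunits and all genes tested. Large and small subunit points lie together, below 0 in all 0h libraries, above 0 in all 3h libraries and on either side of 0 at 24h.

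The first comparison set 3h against 0h, early after surgery. Nearly the whole family was a little higher at 3h, but few members passed the test. The log2 fold change was above 0 for 77 of 78 members, with a median of 0.26 beside 0.00 for all genes tested, of which 50.4% were above 0. In bulk tissue, fewer cells of a type and less RNA per cell cannot be told apart. Past an adjusted p of 0.05 were 2 members, both higher (2.56%), against 5.31% of all genes tested in either direction, 2.01% higher and 3.3% lower. All 4 libraries at 3h lay above all 4 at 0h for 38 members (48.7%), against 10.4% of all genes, and below them for 0 members, against 10.9%. They also lay above for 64.1% of complex I subunits and 53.7% of cytosolic ribosomal proteins. All 39 and all 82 genes of those sets had a log2 fold change above 0, with medians of 0.35 and 0.37. The early rise was thus not particular to the members. The unadjusted p was under 0.05 for 43 of 78 members, against 3824 of all 16866 genes.

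Mrps12, a protein of the decoding centre, measured 30.6, 28.1, 32.8 and 32.5 CPM at 0h and 47.7, 39, 37.4 and 40.7 CPM at 3h. The groups did not overlap, and library 1 was the highest at 3h (log2 fold change 0.41, adjusted p = 0.0467, SE 0.12). Mrpl14, which contacts the small subunit across the interface, measured 81.5, 93.1, 76.8 and 103 CPM at 0h and 150, 123, 105 and 121 CPM at 3h. These groups nearly touched, between 103 and 105 CPM (log2 fold change 0.50, SE 0.14, adjusted p = 0.0473). Its start overlaps that of Tmem63b on the other strand, so its count is less certain. Both calls were close to the threshold, and leaving out single libraries ended the call in 8 of 8 fits for Mrps12 and in 6 of 8 for Mrpl14. The only member with a negative value was Mrpl38, at 55 ± 1.62 CPM at 0h and 54.3 ± 4.03 CPM at 3h (mean ± SD, n = 4; log2 fold change -0.02, adjusted p not under the threshold). The stalk gene Mrpl12, not called, measured 232 ± 18.3 CPM at 0h and 295 ± 25.5 CPM at 3h (n = 4; log2 fold change 0.34, adjusted p = 0.146), and the groups did not overlap.

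How many members were called at 3h depended on the model. DESeq2 called 12, voom with library weights 27 and a fit of the 0h and 3h libraries alone 39, all higher, and these fits also called more genes in all (1398, 2606 and 3191 of 16866, against 895). By contrast, limma-voom, limma on log2 TPM, scaling by library totals and the replicate block called 0. On log2(TPM + 1) the median of the members at 3h was 0.07, with 54 of 78 above 0, and that of all genes was -0.15. Shorter members had larger values at 3h, with a Spearman rho of -0.41 between fold change and gene length over the 78 members and of -0.30 over all genes. With a length trend removed in each library, the median of the members was 0.14, 67 of 78 were above 0 and 0 were called. The 39 shorter members had a median of 0.31 and the 39 longer ones 0.20 without that step, and 0.09 and 0.25 with the trend removed, the opposite order.

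The second comparison set 24h against 0h, when the members' values spread more widely. Of 78 members, 22 rose and 1 fell (29.5%), against 18.2% of all genes tested in either direction, 9.53% higher and 8.62% lower. The large subunit had 13 higher and 1 lower of 49, the small subunit 9 higher and 0 lower of 29. The median log2 fold change was 0.19 beside -0.01 for all genes, but fell below 0 (-0.03) on log2(TPM + 1). In the edgeR fit 64 of 78 members were above 0, against 48.8% of all genes. Values ranged from -0.62 to 0.63, a wider spread than at 3h (-0.02 to 0.50). The libraries did not overlap for 12 members in the higher direction (15.4%, against 9.28% of all genes) and for 2 in the lower (2.56%, against 9.61%).

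Mrpl19, a large-subunit protein with a bacterial counterpart at the subunit interface, was the member that fell. It measured 37.9, 42.1, 35.6 and 42.9 CPM at 0h and 25.8, 24.6, 28.8 and 23.7 CPM at 24h. The 24h libraries were all lower and close together (log2 fold change -0.62, adjusted p = 0.00147, SE 0.12). Its 3h values were 42.2, 48.6, 38.8 and 39 CPM and its 7d values 30.6, 33.5, 40.9 and 41.7 CPM, both groups above every 24h library. The fall from 3h to 24h (log2 fold change -0.71, adjusted p = 0.000737) and the rise from 24h to 7d (0.51, adjusted p = 0.00876) passed the test. The call at 24h held in all 8 fits that left out a library of these groups and in 15 of 16 other settings, and was lost with Myl7 as a covariate (adjusted p = 0.251). Mrpl19 (ENSMUSG00000030045) lies on chromosome 6 of GRCm38 at chr6:81957851-81965958 on the minus strand and overlaps Gcfc2 on the other strand. Gcfc2 had a mean of 1.45 TPM.

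Among the risers, Mrps30 had the smallest p. Named for the small subunit, its protein sits in the large subunit in structures of the mammalian mitochondrial ribosome. It measured 52.4, 43.6, 50.7 and 61.1 CPM at 0h and 91.1, 67.9, 65 and 92.7 CPM at 24h. All 24h libraries were higher, and libraries 1 and 4 stood above 2 and 3 (log2 fold change 0.61, SE 0.13, adjusted p = 0.00251). Mrps30 was also called higher against 3h (0.45, adjusted p = 0.0271) and lower at 7d against 24h (-0.46, adjusted p = 0.0222), with no overlap in either. Its locus is chr13:118378381-118387252 of GRCm38.

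Mrpl54, a large-subunit protein without a bacterial counterpart, measured 47.7, 55.2, 47.8 and 67.9 CPM at 0h and 90.3, 77.1, 67.3 and 90.7 CPM at 24h. The groups overlapped by a single library on each side (log2 fold change 0.58, SE 0.13, adjusted p = 0.00385). Mrpl17, at the rim of the exit tunnel, measured 54.1, 54.1, 46.8 and 53.8 CPM at 0h and 91, 70.2, 59.1 and 74.5 CPM at 24h, with no overlap (log2 fold change 0.50, adjusted p = 0.00544). For Mrpl17 the 3h libraries (51.1 to 61 CPM) stayed near 0h, and 24h was also called against 3h (0.39, adjusted p = 0.0397). The 3h and 24h groups overlapped, however. That call held in only 1 of 8 fits that left out a library and in 8 of 16 other settings. Mrpl24, Mrpl52 and Mrpl23 gave log2 fold changes of 0.52, 0.61 and 0.60 (adjusted p = 0.00556, 0.00689 and 0.00749). These 6 risers and Mrpl19 were the 7 members called in every fit that left out 1 library of the 0h and 24h groups.

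Mrps21, the most abundant member in TPM and a small-subunit protein with a bacterial counterpart, had the largest fold change (0.63, SE 0.17, adjusted p = 0.0144). It measured 108, 120, 111 and 131 CPM at 0h and 244, 159, 119 and 204 CPM at 24h, so 24h library 3 lay inside the 0h range. Without 24h library 1, 24h library 4 or 0h library 1 it was not called (adjusted p up to 0.0661). Smaller rises with no overlap included Mrps15 (0.38, adjusted p = 0.0127), Mrps26 (0.36, adjusted p = 0.0248) and Mrpl38 (0.36, adjusted p = 0.0144). Mrpl38 was also called higher at 24h against 3h (0.37, adjusted p = 0.0187). Its values were 55, 53.2, 54.6 and 57.1 CPM at 0h and 69.9, 63.5, 70.6 and 77.3 CPM at 24h, and 24h library 3, the lowest at that time for Mrps30, Mrpl54, Mrpl17 and Mrps21, was its second highest.

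**Figure D2:**
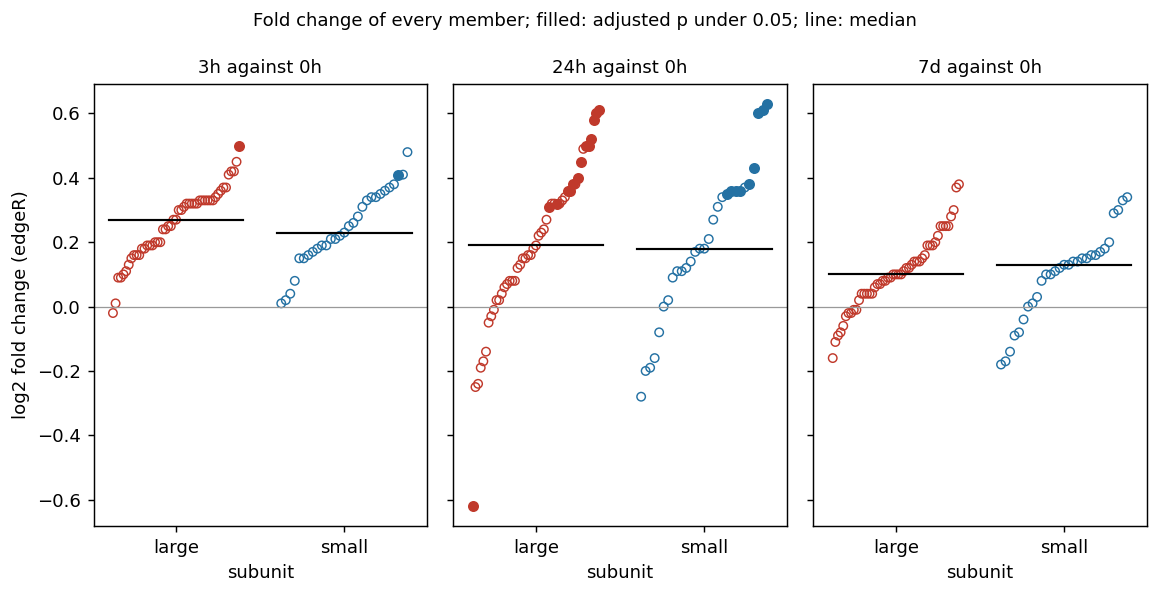
Log2 fold change (y axis) of each of the 78 members against 0h, sorted within the large and small subunit, at 3h, 24h and 7d; filled points passed an adjusted p of 0.05 and lines mark medians. The 3h values are nearly all above 0 with 2 filled points, the 24h values spread from -0.62 to 0.63 with 23 filled points, and 0 are filled at 7d.

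**Figure D3:**
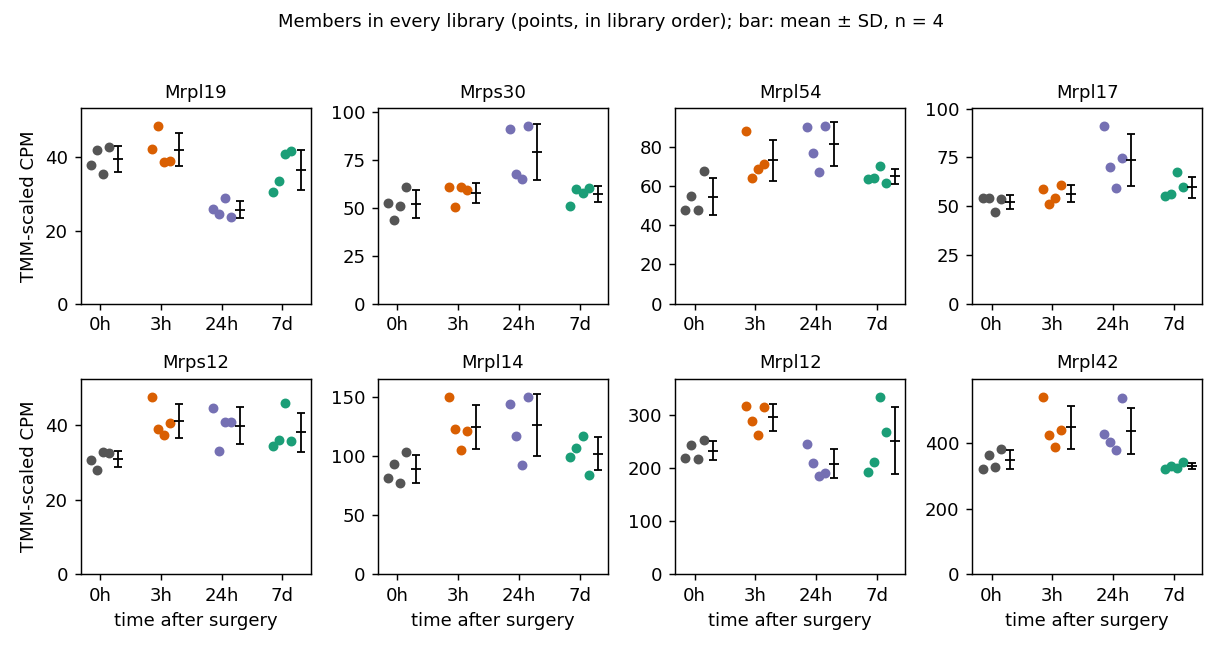
TMM-scaled CPM (y axis, from 0) of 8 members in every library, by time after surgery, with the mean ± SD of 4 libraries. Mrpl19 is lowest in all 24h libraries, Mrps30 and Mrpl17 are highest at 24h, Mrpl12 is lower at 24h than at 3h, and Mrpl42 lies between 321 and 342 CPM in all 7d libraries.

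The count at 24h rested on a few libraries and on how libraries were scaled. Leaving out 24h library 4 left 7 members called and leaving out 24h library 1 left 9, whereas without 24h library 3 there were 34. Without 0h library 1, 2 or 3 there were 9, 14 and 10. On log2(TPM + 1) with limma, 5 members were called higher and 8 lower, and the median of the members was -0.03, below 0, beside -0.19 for all genes. Scaling by library totals gave 9 higher and 2 lower, with medians of 0.08 for members and -0.12 for all genes. With the length trend removed, 10 were higher and 6 lower, with medians of 0.08 and -0.03. Relative to the median of all genes, the members' median was thus higher in each of these settings. With Myl7 as a covariate 0 members were called, although the median was 0.18, and calls over all genes fell from 3062 to 89. Myl7 was high in 3 of the 4 libraries at 24h, so that fit separates it from time only in part.

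Members called lower at 24h only under some other settings included the stalk gene Mrpl12 and Mrpl18, whose bacterial counterpart binds 5S RNA. In TMM-scaled CPM, Mrpl12 measured 218, 243, 217 and 253 at 0h and 245, 210, 184 and 191 at 24h, overlapping groups that did not pass the test (log2 fold change -0.17, adjusted p = 0.435). With the length trend removed, Mrpl12 gave -0.38 (adjusted p = 0.032) and Mrpl18 -0.38 (adjusted p = 0.0058), and both were called lower, as were Mrpl19, Mrpl34, Mrpl49 and Mrps11. Mrpl18 and Mrpl49 were also called lower on log2(TPM + 1), at -0.36 and -0.46, but Mrpl12 was not. With scaling by library totals neither Mrpl12 nor Mrpl18 was called. In the edgeR fit the 39 shorter members had 13 higher and 0 lower (median 0.21), and the 39 longer ones 9 and 1 (0.17). With the trend removed these were 2 and 5 (-0.03) and 8 and 1 (0.18). Of all 16866 genes, 1418 were then higher and 1207 lower. Why the order by length turned was not tested. Mrpl19 and Mrps30 kept their direction and their call in the 3 settings of scaling, TPM and length, as did Mrpl23, Mrpl24 and Mrpl52.

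The balance of the subunits in summed TPM shifted at 24h, a shift that depended largely on a few abundant members. The ratio of summed large- to small-subunit TPM was 2.14 to 2.22 at 0h, 2.13 to 2.24 at 3h, 1.95 to 2.05 at 24h and at most 2.25 at 7d. Every 24h library was below every 0h and 3h library, and 7d library 2, the lowest at 7d, fell in the 24h range. Among abundant members, Mrps21 went from 510 to 668 TPM, while Mrpl12 went from 486 to 374 TPM and Mrpl18 from 329 to 257 TPM. Without Mrps21, Mrpl12 and Mrpl18, chosen after seeing their values, the TPM ratio was 2.25 to 2.35 at 0h and 2.22 to 2.38 at 24h. The means were then 2.31 and 2.30. These members had the largest TPM changes from 0h to 24h, so leaving them out was bound to narrow the gap. Without Mrpl12 and Mrpl18 only, the TPM ratio was 1.87 to 1.92 at 0h and 1.76 to 1.84 at 24h, with no overlap. Without Mrps21 only, it was 2.58 to 2.72 and 2.47 to 2.67, which overlapped. In TMM-scaled CPM, which gives short genes less weight, the ratio was 2.21 ± 0.04 at 0h and 2.16 ± 0.04 at 24h (mean ± SD, n = 4) and the groups overlapped. The median fold changes of both subunits were alike, at 0.19 and 0.18. The summed TPM of all members was 9064 ± 245 at 0h, 9791 ± 287 at 3h, 9133 ± 399 at 24h and 9195 ± 676 at 7d.

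**Figure D4:**
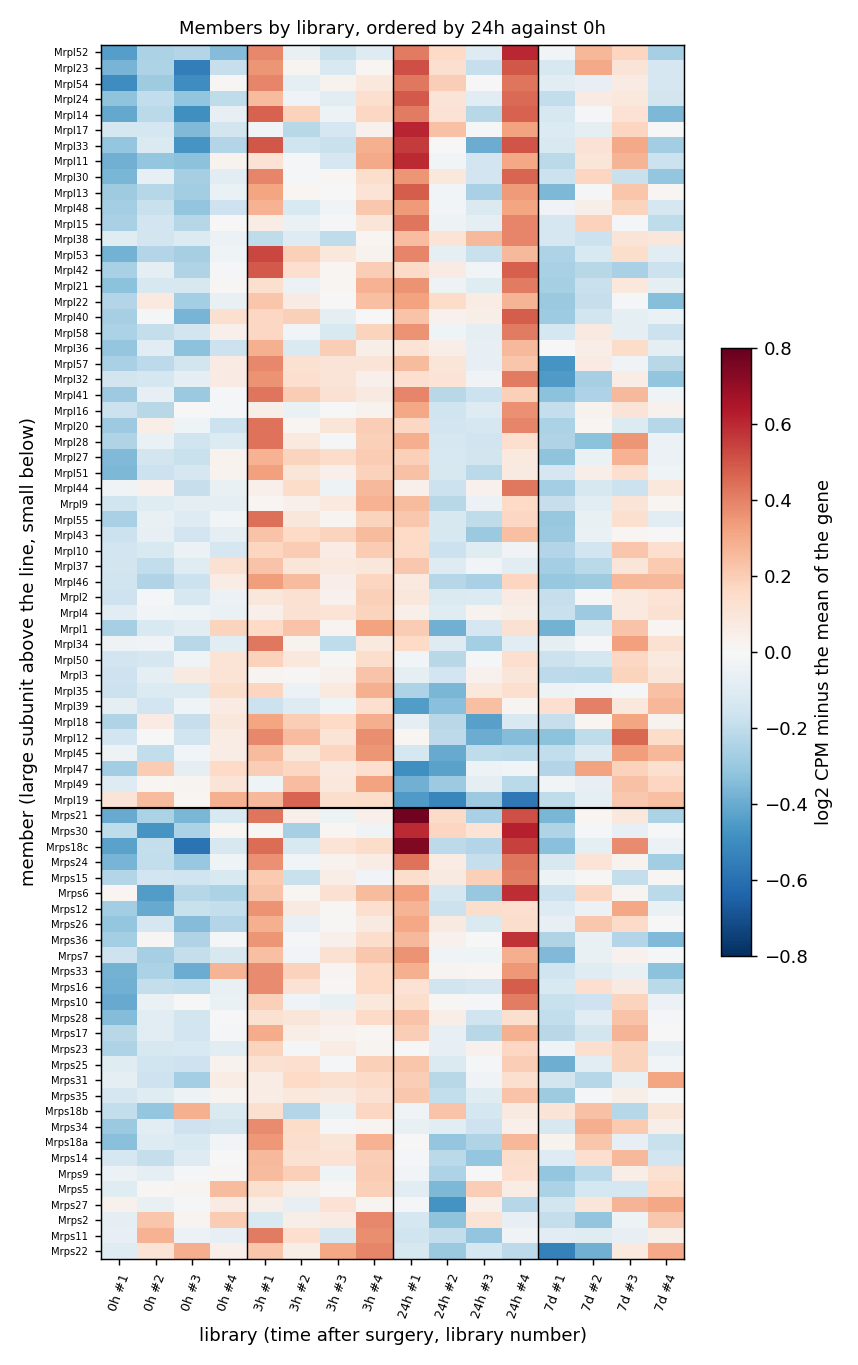
Log2 CPM of each member minus its mean (colour, red above and blue below) in 16 libraries, with large-subunit members above the black line, each subunit sorted by its fold change at 24h against 0h. The 0h columns are mostly blue and 3h library 1 and 24h libraries 1 and 4 mostly red, and Mrpl19, at the foot of the large subunit, is blue in all 24h columns.

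The third comparison set 7d against 0h, after a week, and here no member was called. The count was 0 of 78, against 1.12% of all genes tested (0.219% higher and 0.901% lower). The unadjusted p by edgeR was under 0.05 for 9 of 78 members, against 2701 of all 16866 genes. DESeq2 and limma-voom also called 0. The median log2 fold change was 0.11 beside 0.00 for all genes, and 62 of 78 were above 0, against 49.6% of all genes. On log2(TPM + 1) it was 0.00 with 41 of 78 above 0, beside -0.08 for all genes. With the length trend removed it was 0.02 with 44 above 0, and without 7d library 3 it was 0.05 with 49. Libraries did not overlap for 9 members, all higher (11.5%, against 4.9% of all genes higher and 5.83% lower). The smallest p-values in the small subunit belonged to Mrps26, at 37.8 ± 2.48 CPM at 0h and 47.6 ± 4.24 CPM at 7d (n = 4; log2 fold change 0.34, adjusted p = 0.134), and Mrps34 (0.29, adjusted p = 0.186). In the large subunit they belonged to Mrpl23 (0.38, adjusted p = 0.199) and Mrpl52 (0.37, adjusted p = 0.212). The lowest value was that of Mrps22, at 25.8 ± 2.89 CPM at 0h and 22.7 ± 6.12 CPM at 7d (log2 fold change -0.18, not past the threshold). The 3 comparisons to 0h share their control libraries, and 0h library 1 had the lowest member median of all 16.

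Comparisons between later times do not use the 0h libraries. From 3h to 24h, 3 members were higher and 5 lower (10.3%), against 7.78% of all genes, 4.09% higher and 3.7% lower. The risers were Mrps30, Mrpl17 and Mrpl38, and the fallers, all of the large subunit, were Mrpl19, Mrpl45, Mrpl18, Mrpl49 and Mrpl12. Mrpl12 measured 316, 288, 262 and 314 CPM at 3h against the 24h values given above, with no overlap (log2 fold change -0.51, SE 0.14, adjusted p = 0.027). Mrpl45, which lies near the exit tunnel and the inner membrane, measured 87.1, 77.9, 82.3 and 93.5 CPM at 3h and 66.2, 55.3, 63.6 and 62.8 CPM at 24h, again with no overlap (-0.46, adjusted p = 0.016). Mrpl18 (-0.45, adjusted p = 0.017) and Mrpl49 (-0.40, adjusted p = 0.0242) also had separate groups. With the length trend removed, 3 members were higher and 6 lower. Leaving out 3h library 1, 2 or 4 gave 4, 3 and 3 calls, and leaving out 24h library 1 or 2 gave 5 each. Without 3h library 2 there were 0 higher and 3 lower, and without 24h library 4 there were 0 higher and 6 lower. The risers kept their call in 4 (Mrps30), 4 (Mrpl38) and 1 (Mrpl17) of 8 such fits. The fallers kept theirs in 8 (Mrpl19), 7 (Mrpl18), 6 (Mrpl45), 4 (Mrpl49) and 4 (Mrpl12).

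From 24h to 7d, 1 member was higher and 5 lower (7.69%), against 8.44% of all genes, 3.84% higher and 4.6% lower, a share near that of the table. Mrpl19 was the riser. Mrps36 fell from 116, 99.4, 97 and 145 CPM at 24h to 82.1, 93.3, 82.6 and 76.1 CPM at 7d, with no overlap (log2 fold change -0.45, adjusted p = 0.0238). Its product, also known as Kgd4, is the one placed in the 2-oxoglutarate dehydrogenase complex. Mrpl42 was called lower both against 24h (-0.41, adjusted p = 0.0357) and, as the only member called from 3h to 7d, against 3h (-0.45, adjusted p = 0.0301). It measured 540, 423, 388 and 440 CPM at 3h, 428, 402, 378 and 535 CPM at 24h and 321, 330, 322 and 342 CPM at 7d, the 7d libraries lying together below all others of those times. From 3h to 7d this made 0 higher and 1 lower of 78 (1.28%, against 4.87% of all genes, 1.99% higher and 2.88% lower), while 7 of 78 log2 fold changes were above 0, against 50.5% of all genes. That single call was lost without 3h library 1, 2 or 4 or 7d library 1 or 3. Mrps30, Mrpl22 (-0.41) and Mrpl32 (-0.40) were the other members lower at 7d than at 24h. Without 24h library 3 the count from 24h to 7d rose from 6 to 19, without 24h library 1 or 4 it was 1, and without 7d library 4 it was 2. Over all times together, 20 of 78 members changed (25.6%, against 20.7% of all genes), 14 of the large and 6 of the small subunit. That number was 10 or 11 without 0h library 1, 2 or 3 or 24h library 1 or 4, and 37 without 24h library 3.

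Members with a role of their own showed no common pattern. The 3 Mrps18 genes encode related proteins, of which Mrps18a sits in the large subunit and Mrps18b and Mrps18c in the small. Mrps18c was called higher at 24h (log2 fold change 0.60, adjusted p = 0.0478, SE 0.21), from 14.5, 17.1, 13 and 17.9 CPM at 0h to 32.7, 16.9, 16.6 and 28.5 CPM, with libraries 2 and 3 inside the 0h range. Mrps18a gave 0.09 (adjusted p = 0.644) and Mrps18b 0.11 (adjusted p = 0.616) at 24h. Mrpl58, the peptidyl-tRNA hydrolase that frees stalled chains, measured 66.1 ± 5.93 CPM at 0h and 82.3 ± 14.6 CPM at 24h (n = 4; 0.32, adjusted p = 0.0608).

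Mitochondrial ribosomal proteins under other names, a list chosen by function, had 2 higher and 0 lower of 5 at 24h. Of all genes, 9.53% were called higher and 8.62% lower. Dap3, a GTP-binding protein of the small subunit, went from 102 ± 8.6 to 149 ± 20.3 CPM (n = 4; log2 fold change 0.54, adjusted p = 0.00247). Aurkaip1, another small-subunit protein, went from 79.4 ± 3.66 to 111 ± 21.5 CPM (0.48, adjusted p = 0.00741). Chchd1, Gadd45gip1 and Ptcd3 gave 0.21, 0.20 and -0.18 and were not called. The list had 0 called at 3h and 0 at 7d, against 5.31% and 1.12% of all genes.

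Of other genes of mitochondrial gene expression, the share called at 24h lay near the 18.2% of all genes in each of 4 lists. Of 18 translation and release factors 1 rose and 2 fell, with a median of 0.00. Mtrf1, a release factor, gave 0.52 (adjusted p = 0.0132), Mtif2, the initiation factor, -0.45 (adjusted p = 0.0157) and Taco1, the translational activator of a cytochrome oxidase message, -0.65 (adjusted p = 0.00588). Of 20 tRNA synthetases and transamidation genes 1 rose and 2 fell (median -0.06). Gatb and Qrsl1, both of the complex that makes glutaminyl-tRNA, gave 0.45 (adjusted p = 0.00741) and -0.61 (adjusted p = 0.00373). Lars2, the mitochondrial leucyl-tRNA synthetase, went from 734 ± 155 to 302 ± 117 CPM (n = 4; -1.28, adjusted p = 0.00085), a larger change than that of any member. Lars2, Qrsl1, Mtif2 and Taco1 were all called higher again from 24h to 7d (1.04, 0.85, 0.56 and 0.69). Of 30 assembly and rRNA modification genes 5 rose and 0 fell (median 0.02), among them Malsu1, an assembly factor of the large subunit (0.81, adjusted p = 0.00504), and Ddx28, an RNA helicase (0.53, adjusted p = 0.0208), and Mpv17l2 (0.45, adjusted p = 0.0312). Of 23 transcription and RNA processing genes 4 rose and 0 fell (median -0.02), led by Hsd17b10, a subunit of mitochondrial RNase P (0.70, adjusted p = 0.0027), with Prorp, its catalytic subunit (0.65, adjusted p = 0.00522). At 3h and at 7d these 4 lists had 0 called, against 5.31% and 1.12% of all genes.

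Regulators of mitochondrial genes had 1 higher and 2 lower of 13 at 3h, against 5.31% of all genes called, and 0 higher and 3 lower at 24h, against 18.2%. Ppargc1b, a coactivator of mitochondrial biogenesis, went from 24.9 ± 3.72 CPM at 0h to 10.6 ± 0.971 CPM at 3h (n = 4; log2 fold change -1.23, adjusted p = 0.0251) and 11 ± 5.15 CPM at 24h (-1.17, adjusted p = 0.0126). Gabpb2, a subunit of an ETS-type factor that binds many promoters of this class, gave -0.34 at 24h (adjusted p = 0.0464). Nrf1, Gabpa, Yy1 and Ppargc1a were not called at any of the 3 times against 0h. Complex I subunits, which depend on the products of mitochondrial translation, had 1 higher and 0 lower of 39 at 3h, 21 and 0 at 24h (median 0.40) and 0 at 7d. Cytosolic ribosomal proteins had 1, 9 and 0 higher of 82 at the same times, with medians of 0.37, 0.40 and 0.21. The shares called higher at 24h were 53.8% for complex I and 11% for cytosolic ribosomal proteins. Of all genes, 2.01%, 9.53% and 0.219% were called higher at 3h, 24h and 7d.

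Most members moved together at 3h, as complex I subunits and cytosolic ribosomal proteins also did. Promoters of the members were searched for letters of factors known for genes of this class. RefSeq start sites (GRCm38.p6) gave 75 windows for 69 of the 78 members, each from 250 bases before to 50 bases after the start. The 9 not matched were Mrpl4, Mrpl13, Mrpl15, Mrpl19, Mrpl38, Mrpl54, Mrps28, Mrps34 and Mrps35. The letters searched on both strands were GCGCA, any base and GCGC for NRF1, CCGGAAG for ETS factors, AAGATGG for YY1 and GGGCGG for SP1. NRF1 letters were in 17.3% of member windows, against 9.33% of the windows of tested protein-coding genes and 4.6% of all 32851 windows. ETS letters were in 34.7%, against 16.4% and 8.86%, YY1 letters in 17.3%, against 6.78% and 6.34%, and SP1 letters in 52%, against 61.4% and 35.7%. Letters for at least 1 of NRF1, ETS and YY1 were present for 43 of 69 members. At 24h the members with ETS letters had 8 called higher of 26 (median 0.32) and those without 11 of 43 (median 0.17). Of all genes, 9.53% were called higher. This was the widest gap between medians of the motifs and times compared, and it was not tested. At 24h the medians with and without letters were 0.24 and 0.18 for NRF1 and for YY1, and 0.26 and 0.18 for SP1. For ETS at 3h they were 0.32 and 0.24. A match is only a run of letters, and binding was not measured.

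The 150 bases before the RefSeq start are printed for the 2 members called at 3h and for 3 of the members called at 24h in every fit that left out a library, since these carry the calls above. They are written 5′ to 3′ along the gene, with matches to the NRF1, ETS or YY1 letters in capitals.
Mrpl14, chr17:45686199-45686348, plus strand: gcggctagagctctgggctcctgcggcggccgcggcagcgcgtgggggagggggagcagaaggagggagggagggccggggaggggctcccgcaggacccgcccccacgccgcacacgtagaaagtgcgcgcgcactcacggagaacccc
Mrps12, chr7:28741822-28741971, minus strand: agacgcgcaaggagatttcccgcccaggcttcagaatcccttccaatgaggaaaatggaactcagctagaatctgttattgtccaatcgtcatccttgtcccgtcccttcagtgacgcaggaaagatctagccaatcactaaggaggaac
Mrpl17, chr7:105811088-105811237, minus strand: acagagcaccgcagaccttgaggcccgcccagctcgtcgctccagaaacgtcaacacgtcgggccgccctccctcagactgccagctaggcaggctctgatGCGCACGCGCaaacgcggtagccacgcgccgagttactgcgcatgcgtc
Mrpl52, chr14:54426759-54426908, plus strand: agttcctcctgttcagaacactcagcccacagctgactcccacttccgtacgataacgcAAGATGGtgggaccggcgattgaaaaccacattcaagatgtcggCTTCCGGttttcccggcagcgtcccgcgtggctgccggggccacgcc
Mrps30, chr13:118387253-118387402, minus strand: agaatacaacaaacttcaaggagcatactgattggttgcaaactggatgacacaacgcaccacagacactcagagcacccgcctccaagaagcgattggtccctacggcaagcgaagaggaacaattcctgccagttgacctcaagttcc
Mrpl17 has a single NRF1 match, starting 49 bases before the start site. Mrpl52 has a YY1 match 91 bases and an ETS match 47 bases before its start, the latter on the other strand. The stretches of Mrpl14, Mrps12 and Mrps30 hold no such letters. In the rest of the windows searched, outside the bases printed, Mrpl14 has NRF1 letters and Mrps12 has ETS and YY1 letters. There Mrpl17 has ETS letters and Mrps30 has none. Mrpl23 and Mrpl24 were also called at 24h in every fit that left out a library. Their windows, not printed, hold no NRF1, ETS or YY1 letters. Mrpl19 and Mrpl54, called likewise, had no window.

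Many members share their start region with a neighbour read in the other direction. In GENCODE M21, 29 members had a gene on the opposite strand starting within 1000 bases, in 28 pairs, since Mrps11 and Mrpl46 are partners of each other. Among the others are Mrps12 with Sars2, the mitochondrial seryl-tRNA synthetase, Mrpl36 with Ndufs6 and Mrpl47 with Ndufb5, both subunits of complex I, and Mrpl32 with Psma2, a proteasome subunit. At 3h the member and its partner had the same sign in 17 of the 28 pairs, and at 24h in 9. The median at 24h was 0.15 for members and -0.06 for partners, with 8 members and 4 partners called higher, against 9.53% of all genes. A single partner was called lower, against 8.62%: Ncapd2, beside Mrpl51 (-0.45, adjusted p = 0.0493). Mrpl36 and Ndufs6 were both called higher at 24h (0.31, adjusted p = 0.0447, and 0.45, adjusted p = 0.0301), and their starts lie 29 bases apart. The call of Mrpl36 held in only 2 of 8 fits that left out a library and in 7 of 16 other settings. Mrps12 (0.36) and Sars2 (-0.15, adjusted p = 0.5) were not alike in call.

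Counts of some members are uncertain because of shared reads. In all, 40 members overlap another annotated gene, 35 of them on the opposite strand and 11 on the same strand, and for 12 the other gene reached 10 TPM. Mrps24 overlaps Urgcp (29.1 TPM) on the same strand, Mrpl14 overlaps Tmem63b (67.4 TPM) and Mrpl18 overlaps Tcp1 (123 TPM) on the other. Mrpl36 overlaps Ndufs6, at 1734 TPM the most abundant of these neighbours, by 30 bases on the opposite strand. How the counting treated strand is not given in the sources used here, so reads of opposite-strand neighbours may not have been told apart. Pseudogene copies took few counts. Over all libraries Mrps36-ps1 and Mrps36-ps2 had 84 and 53 counts beside 16019 for Mrps36, and Mrpl23-ps1 had 71 beside 11459 for Mrpl23.

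**Figure D5:**
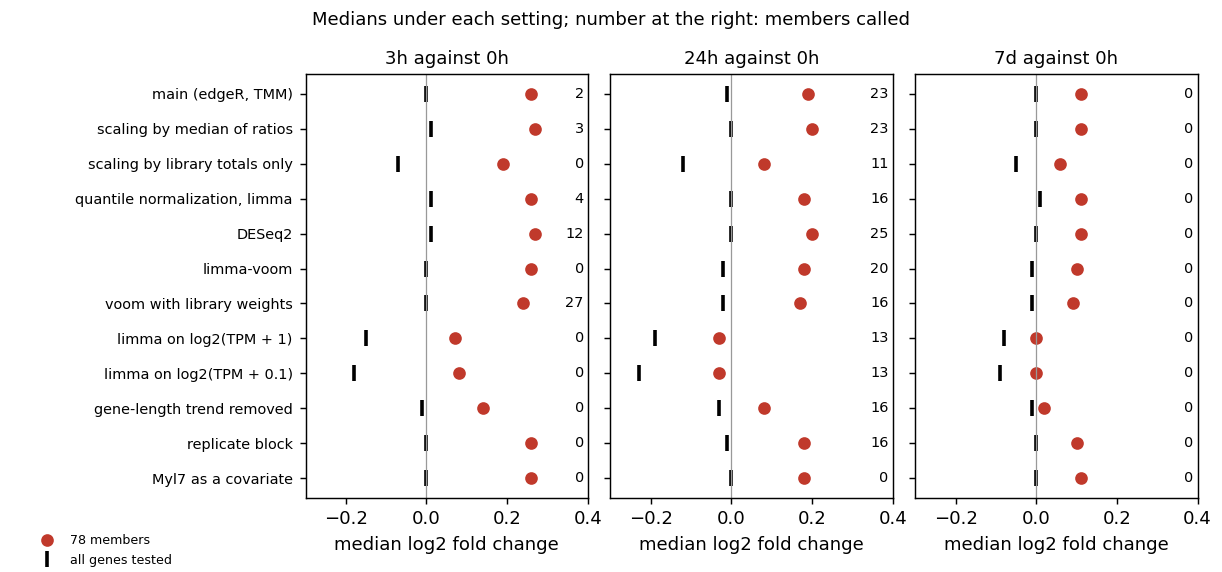
Median log2 fold change (x axis) of the 78 members (circles) and of all genes tested (bars) under 12 settings for 3h, 24h and 7d against 0h, with the number of members called at the right. The member median lies above that of all genes in every row, while the number called runs from 0 to 27 at 3h and from 0 to 25 at 24h.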

How the data were processed

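RNA-seq of left ventricle from 16 libraries in 4 groups of 4 was used. The submitters' processing notes name cutadapt, STAR and mm10, without roles. Which tool made the counts, and whether it used strand, is not given in the sources used here. The authors deposited, per the file headers, a read count per gene, with TPM and FPKM for the same genes. Both normalized units could be recomputed from those counts with the deposited lengths of the genes, to a relative difference of 1e-06. Polyadenylated RNA was the input, per the labels, and the table held 0 genes of mitochondrial DNA.

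Counts were tested with edgeR 4.0.16 (R 4.3.3), TMM scaling, a robust quasi-likelihood fit over all 16 libraries without a block, and Benjamini-Hochberg adjustment over 16866 genes, threshold 0.05. Unless another tool is named, every adjusted p comes from this fit. DESeq2 1.42.0, limma 3.58.1 and other scalings, filters and covariates were alternatives, and the code was tested on simulated data. Unless given as TPM, values compared between libraries are TMM-scaled CPM. Levels compared between genes, and the marker sums and summed subunit levels compared between libraries, are TPM. Named genes were the most and least abundant members, those of smallest p in each comparison, subunit and direction, the extremes, members with a role of their own and up to 3 genes per pathway list. Mrpl23, Ncapd2 and members named for losing or gaining a call, were chosen after seeing their values. Not every gene the rule covers is reported here. The members and lists were chosen with earlier results of these data known.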

Additional observations from a re-analysis of the deposited data

Results flagged for a closer look

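In 4 of 152 groups of 4 libraries tested over the 35 members named by the rule and 3 summed levels (all members, large and small subunit), 1 library stood far from the rest of its group, and chance alone gives about 1 in 20. Mrpl17 measured 46.8 CPM in 0h library 3, where the nearest 0h library had 53.8. Mrps10 measured 25.7 CPM in 0h library 1, against 32.7 in the nearest. Mrps12 measured 46 CPM in 7d library 3, against 36 in the nearest. Mrps21 measured 192 CPM in 3h library 1, against 147, the library in which most members were high.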

How the results depend on the processing

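For 25 pairs of a member named by the rule and a comparison in which it was called, among the 6 comparisons between times, no alternative reversed a direction. Under these alternatives, 445 values for the pairs kept their call and 165 lost it. At 3h, against 2 members called, DESeq2 gave 12, voom with library weights 27, the 2 groups alone 39, quantile normalization 4 and a fit without robust estimation 1, while library totals, limma-voom, log2(TPM + 1), log2(TPM + 0.1), the length trend, Myl7 as a covariate and leaving out 3h libraries 2 and 3 gave 0. At 24h, against 23, library totals and the 2 groups alone gave 11, TPM with either pseudocount 13 and the Myl7 covariate 0. From 3h to 24h, against 8, the 2 groups alone gave 5, the Myl7 covariate 1 and leaving out 3h libraries 2 and 3, chosen after seeing the data, gave 2. From 3h to 7d, against 1, DESeq2 gave 3, library weights and the length trend 2 and the Myl7 covariate 0. From 24h to 7d, against 6, library totals gave 10, library weights 2 and the 2 groups alone and the Myl7 covariate 0. For any change, against 20, library totals and TPM with either pseudocount gave 10, library weights 31, the Myl7 covariate 1 and leaving out 3h libraries 2 and 3 gave 12. The cause was not tested. Leaving out 1 library gave 0 to 3 members at 3h, 7 to 34 at 24h, 0 at 7d, 3 to 9 from 3h to 24h, 0 to 2 from 3h to 7d, 1 to 19 from 24h to 7d and 10 to 37 for any change.

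The log2 ratio of summed TPM to 0h was 0.11 at 3h, 0.01 at 24h and 0.02 at 7d. From summed CPM it was 0.27, 0.21 and 0.10, and from the median centred log2 TPM it was -0.02 at 24h. On TPM with either pseudocount the median fold change of members was -0.03 at 24h and 0.03 from 24h to 7d. The replicate block gave 0 members at 3h, 16 at 24h, 0 at 7d, 6 from 3h to 24h, 1 from 3h to 7d, 5 from 24h to 7d and 13 for any change. Libraries with the same number did not vary together (correlations of -0.12 to 0.06). With 4 libraries per group, this cannot show whether a number marks a shared animal or day, and the labels do not say. The lowest member count in a library was 112, so counting error weighs most on the least abundant members.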
